A study of Saccharomyces cerevisiae with 5 samples.

Results

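The proteasome genes of Saccharomyces cerevisiae (budding yeast) were followed on 5 spotted 2-channel arrays that compared RNA recovered with zzYra1 by immunoprecipitation (IP) against total RNA. Members were taken by gene symbol from the platform annotation: all spots named PRE, PUP 1 to 3, RPN or RPT 1 to 6 with their number, and SCL1. This gave 34 of the 5583 annotated genes, 32 of them subunits of the proteasome and 2 of them (RPN4 and RPN14) not. They are short genes, with a median length of 894 bases (471 to 2982) in RefSeq assembly R64, against 1257 bases over 5577 genes. The first platform (arrays 1 and 2) carried 42 spots of these genes, 8 genes having 2 spots, and the second (arrays 3, 4 and 5) carried 68 spots, 2 for each gene. Every array paired the IP RNA with total RNA. Arrays 1 and 3 held the IP RNA in channel 1, whereas arrays 2, 4 and 5 held it in channel 2. The sources used here do not give the strain, its genotype, the growth condition or the tag construct. A mock IP was not analysed here, so ratios carry no background of RNA recovered without the tagged protein.

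Yra1 binds RNA and helps to hand messenger ribonucleoprotein particles to the export receptor at the nuclear pore. The proteasome is the large protease that degrades proteins marked with ubiquitin. Its barrel-shaped core particle is built of stacked alpha and beta rings, with the cutting sites on 3 of the beta subunits facing the inner chamber. The regulatory particle caps the barrel: its base holds a ring of ATPases that unfold substrates and feed them in, and its lid removes the ubiquitin chains. In yeast the subunit genes share the transcription factor Rpn4, which is itself degraded quickly by the proteasome.

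Values are log2 ratios of the 2 channels of a spot, converted from the deposited log10 ratios and centred on the median of the array, so that 0 is the median spot. The sources used here do not say which RNA is on top of the ratio. Values are therefore kept as deposited, "above" and "below" refer to the deposited ratio, and means are also given with the sign of arrays 2, 4 and 5 turned, as would apply if the ratio followed the channels. Turning an array exchanges its highest and lowest genes, so the ranks and signs given for every array hold only as deposited. If arrays 1 and 3 were turned in place of arrays 2, 4 and 5, the turned means would have the opposite sign. The arrays had values for 3722 to 7591 spots and 1717 to 5541 genes, and their median deposited log10 ratios ran from -1.39 to 1.34. The spread of gene ratios (SD) on the log2 scale was lowest on array 2, at 0.81, and highest on array 5, at 2.25. Arrays 1 and 2 may be a channel exchange of the same extracts and were averaged as replicate 1, and arrays 3, 4 and 5 were replicates 2, 3 and 4. The sample titles give arrays 1 and 2 the same number code and arrays 3, 4 and 5 a different code each, without saying what the code stands for. The labels do not tie the replicates to separate cultures, and p-values therefore cover the spread among these arrays only, which may be technical.

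Of the 8 members measured on at least 4 arrays, 0 had the same sign on every array, against 11.9% of all genes, and with arrays 2, 4 and 5 turned it was again 0, against 10.1%. Only 3 members had a value in all 4 replicates and could enter the test of the mean ratio against 0. None of the 3 passed, and neither did any of the 703 genes tested, so the test does not separate the members from other genes. The 5 lowest values, down to -4.30 for the ATPase gene RPT5, all came from array 5. The highest were 2.34 for the ubiquitin receptor gene RPN13 on array 5, 2.22 for the scaffold gene RPN1 on array 4 and 2.18 for the core gene PRE7 on array 2.

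**Figure D1:**
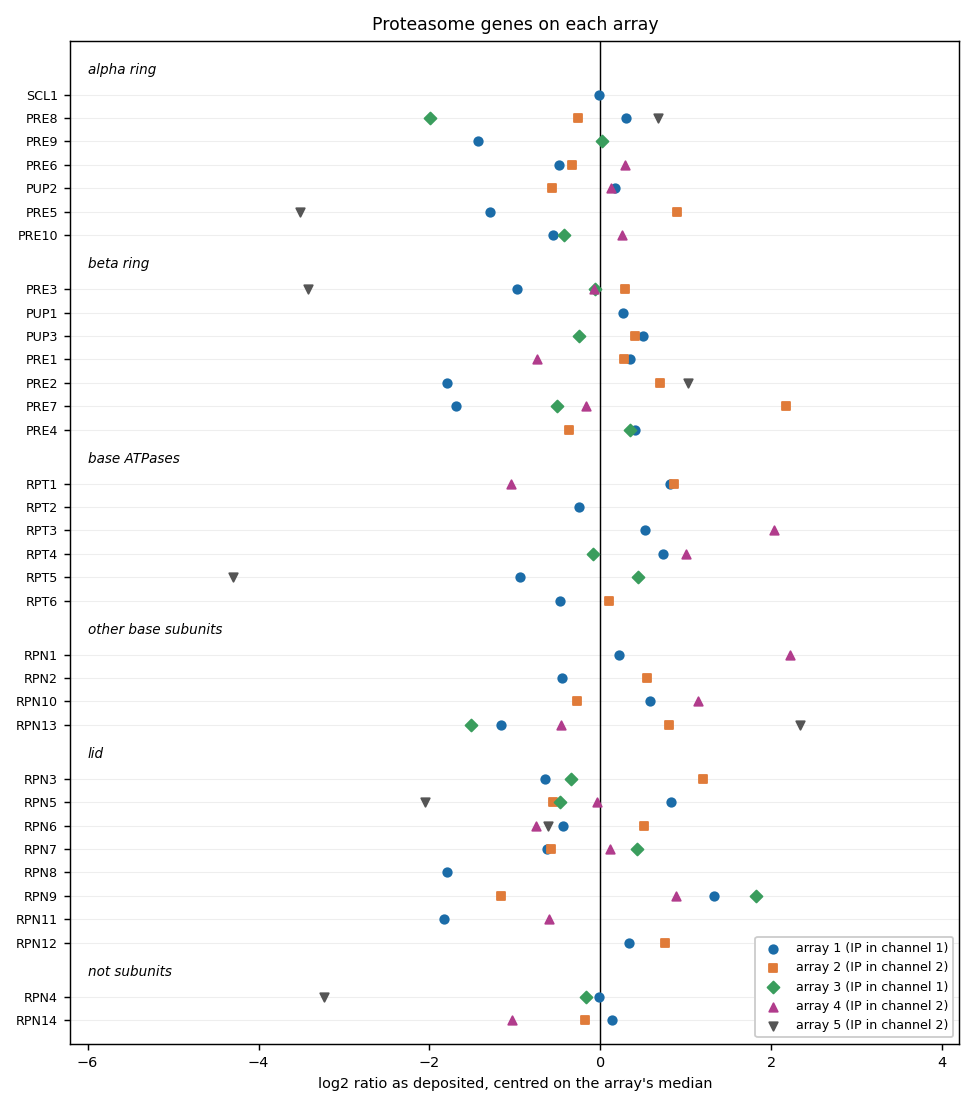
Log2 ratio as deposited, centred on the array's median (x axis), of each of the 34 proteasome genes (rows, grouped by subcomplex), with 1 point for each array that measured the gene. The 5 lowest points come from array 5, and in most rows with several points the points lie on both sides of 0.

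Coverage limited what could be tested. Array 1 gave a value for all 34 genes, and arrays 2 to 5 gave one for 22, 15, 18 and 9. On array 5 this was 26.5% of the members, against 31.0% of all genes of that platform. PRE3, RPN13 and RPN5 were measured on 5 arrays. PRE8, PRE7, RPN6, RPN7 and RPN9 were measured on 4 arrays, 15 members on 3 and 7 on 2. SCL1, PUP1, RPT2 and RPN8 were measured on array 1 alone.

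Of the 7 alpha ring genes, none was measured in all 4 replicates. SCL1, an alpha subunit, lay at -0.01 on array 1. PRE8 had 0.30, -0.26, -1.99 and 0.67 on arrays 1, 2, 3 and 5, and its value on array 3 was the lowest of all members there. Its 0.30 on array 1 is the average of 2 spots at 2.33 and -1.74, so it does not place PRE8 near the median there. PRE5 had -1.29 on array 1, 0.89 on array 2 and -3.52 on array 5. PRE10 had -0.55, -0.42 and 0.25 on arrays 1, 3 and 4, and PRE6 had -0.49, -0.33 and 0.29 on arrays 1, 2 and 4. PRE10 thus lay below 0 where the IP RNA was in channel 1 and above 0 on the 1 array that measured it with the IP RNA in channel 2. PUP2 had 0.18, -0.57 and 0.12 on arrays 1, 2 and 4. PRE9, an alpha subunit that yeast can live without, had -1.43 on array 1 and 0.02 on array 3.

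The beta ring holds the proteolytic sites, carried by PRE3 (caspase-like), PUP1 (trypsin-like) and PRE2 (chymotrypsin-like). PRE3 had -0.98, 0.29, -0.06, -0.07 and -3.42 on arrays 1 to 5. It lay below the median in all 4 replicates, its mean was -0.97 ± 1.63 (SD, n = 4), and the other replicates were within 0.35 of 0 while replicate 4 stood far below them. With limma the 95% interval of the mean ran from -2.54 to 0.59 (adjusted p = 0.66), and without replicate 4 the mean was -0.16. With arrays 2, 4 and 5 turned the mean was 0.70 ± 1.84 (adjusted p = 0.92 with limma). PRE3 was the 1 of the 3 members measured in all 4 replicates that had the same sign in each, against 15.1% of the 703 genes so measured, and with the arrays turned it was 0 of 3, against 8.96%. PUP1 lay at 0.26 on array 1. PRE2 had -1.80, 0.70 and 1.03 on arrays 1, 2 and 5. The active-site genes therefore had no common sign on any array that measured more than 1 of them, apart from array 2, where PRE3 and PRE2 both lay above 0.

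The non-catalytic beta subunits spread as widely. PRE7 had -1.69, 2.18, -0.51 and -0.17 on arrays 1 to 4, and it was the highest member on array 2. PUP3 had 0.49, 0.41 and -0.25 on arrays 1, 2 and 3. PRE1 had 0.35, 0.28 and -0.75 on arrays 1, 2 and 4, and PRE4 had 0.40, -0.37 and 0.34 on arrays 1, 2 and 3. In both, 1 array lay on the other side of 0 from the remaining ones.

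The base ATPases unfold substrates. RPT3 had 0.53 on array 1 and 2.04 on array 4, and RPT4 had 0.73, -0.09 and 1.00 on arrays 1, 3 and 4. RPT1 had 0.82, 0.86 and -1.05 on arrays 1, 2 and 4, the last being the lowest member of array 4. RPT5 had -0.95, 0.44 and -4.30 on arrays 1, 3 and 5, and the last of these was the lowest of all member values. RPT2 lay at -0.25 on array 1, and RPT6 had -0.47 on array 1 and 0.10 on array 2. On array 4 the ATPases thus included one of the highest members and the lowest one.

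The other base subunits are the scaffolds RPN1 and RPN2 and the ubiquitin receptors RPN10 and RPN13. RPN1 had 0.22 on array 1 and 2.22 on array 4, where it stood at percentile 95.4 of all genes. RPN10 had 0.58, -0.27 and 1.14 on arrays 1, 2 and 4, and RPN2 had -0.45 on array 1 and 0.54 on array 2. The 4 highest members of array 4 were thus RPN1, RPT3, RPN10 and RPT4, all genes of the base, and with that array turned they were the 4 lowest. The other base genes measured there as deposited, RPT1 at -1.05 and RPN13 at -0.46, lay below 0. With the median of the spots around each spot subtracted, RPN1 and RPT3 stayed highest on array 4, at 2.25 and 2.20. The lid gene RPN9, at 1.13, then stood above RPN10 at 0.59 and RPT4 at 0.24, so the top 4 were not all base genes. RPN13 had -1.16, 0.80, -1.52, -0.46 and 2.34 on arrays 1 to 5. Its mean over the replicates was 0.05 ± 1.63 (SD, n = 4), with a 95% interval from -1.52 to 1.61 (adjusted p = 0.98 with limma), and without replicate 4 it was -0.72. With the arrays turned, its mean was -1.09 ± 1.18 (adjusted p = 0.92 with limma), since the value of array 5 then counted on the same side as those of arrays 1 and 3.

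The lid holds the deubiquitinating enzyme RPN11, its partner RPN8, and scaffold subunits. RPN5, a scaffold subunit, had 0.83, -0.55, -0.47, -0.04 and -2.06 on arrays 1 to 5. Its mean was -0.61 ± 1.00 (SD, n = 4), the 95% interval ran from -1.94 to 0.72, and the adjusted p was 0.72 with limma. Without replicate 4 the mean was -0.12. With the arrays turned it was 0.58 ± 1.09 (adjusted p = 0.92 with limma). RPN9, another scaffold subunit, had 1.33, -1.17, 1.82 and 0.88 on arrays 1 to 4. It was the highest member on arrays 1 and 3, at percentiles 96.6 and 95.9 of all genes, and the lowest member on array 2, at percentile 4.76. With arrays 2, 4 and 5 turned it was the highest member on array 2 as well, at 1.17 and percentile 95.2, but it then lay below 0 on array 4. Its mean was 0.93 ± 0.87 as deposited and 0.73 ± 1.42 turned (SD, n = 3). RPN11 had -1.83 on array 1, the lowest member there, and -0.60 on array 4, and RPN8 had -1.80 on array 1. RPN6 had -0.44, 0.50, -0.76 and -0.62 on arrays 1, 2, 4 and 5. RPN7 had -0.63, -0.58, 0.43 and 0.11 on arrays 1 to 4. RPN3 had -0.64, 1.20 and -0.34 on arrays 1, 2 and 3, and RPN12 had 0.34 and 0.75 on arrays 1 and 2. Of the 6 lid genes measured on both arrays 1 and 2, RPN7 and RPN12 had the same sign on both and the other 4 had opposite signs, against 49.8% of all genes with opposite signs. With array 2 turned, those 4 had the same sign on both arrays.

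RPN4 and RPN14 share the name but are not subunits. RPN4, the transcription factor, had -0.01 on array 1, -0.17 on array 3 and -3.23 on array 5. RPN14, an assembly chaperone of the base, had 0.14, -0.18 and -1.03 on arrays 1, 2 and 4.

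The test across genes called no member. The 3 members measured in all 4 replicates were PRE3, RPN13 and RPN5, and 0 of 3 passed, against 0% of the 703 genes fitted, with limma and Benjamini-Hochberg adjustment over all genes. At an unadjusted p under 0.05 it was also 0 of the 3 members, against 7.82% of all genes (turned, 0 of the 3 and 2.42%). The median mean ratio of the 3 members was -0.61, against 0.04 over the 703 genes, and turned it was 0.58, against -0.02. Without replicate 4 the median of the 3 members was -0.16. Taking genes measured in at least 3 replicates raised the tested members to 12 of 2422 genes. Again 0 of 12 passed, against 0%, and 0 had an unadjusted p under 0.05, against 4.91% (turned, 0 of 12 and 2.81%). Their median was -0.34, against -0.05 over all genes of that fit, and turned it was 0.20, against -0.02. The 9 members added were PRE8, PRE10, PRE7, RPT4, RPT5, RPN6, RPN7, RPN9 and RPN4. Their means ran from -1.60 ± 2.44 for RPT5 to 0.93 ± 0.87 for RPN9 (SD, n = 3 each; adjusted p = 0.80 with limma for both). The intervals are wide: for RPN9 the 95% interval was -0.37 to 2.22, and for RPN7, whose mean was -0.02, it was -1.20 to 1.15.

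On single arrays the medians of the proteasome genes lay close to those of all genes, with array 5, where 9 members were measured, as the exception. In array order the member medians were -0.13, 0.28, -0.17, 0.03 and -2.06, against -0.01, 0.00, -0.04, -0.03 and -0.10 over all genes. Over the 32 subunit genes, without RPN4 and RPN14, they were -0.34, 0.29, -0.17, 0.11 and -1.34. Members above 0 numbered 15 of 34, 13 of 22, 5 of 15, 9 of 18 and 3 of 9 in the same order, against 49.4%, 50.2%, 47.6%, 48.7% and 48.2% of all genes. Members more than 1 log2 unit above the median numbered 1, 2, 1, 3 and 2, against 8.92%, 8.53%, 13%, 14% and 29.8% of all genes. Members more than 1 log2 unit below it numbered 7, 1, 2, 2 and 5, against 14.4%, 6.68%, 13.6%, 12.5% and 34.8% of all genes. On array 5 a wide range is thus common to members and to all genes. With the median of the spots around each spot subtracted, the member median there was -0.44. Members more than 1 log2 unit below then numbered 1 of 9, against 20.6% of all genes. The 7 of array 1 were RPN11, RPN8, PRE2, PRE7, PRE9, PRE5 and RPN13. The core particle had -0.25, 0.28, -0.25, 0.02 and -1.37 on arrays 1 to 5, and the regulatory particle had -0.34, 0.50, -0.09, 0.11 and -1.34. The difference between these medians was not tested.

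**Figure D2:**
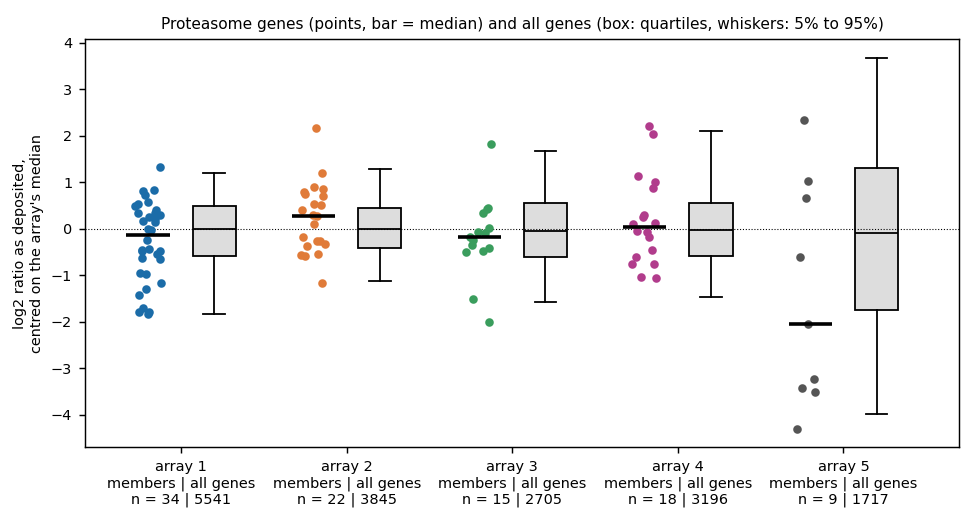
Log2 ratios as deposited (y axis) of the proteasome genes (points, the bar marking their median) and of all genes (box from lower to upper quartile, whiskers from 5% to 95%) on each array. Member medians lie between -0.17 and 0.28 on arrays 1 to 4 and at -2.06 on array 5, where the box of all genes is also the widest.

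Arrays 2 and 4 placed most of the proteasome genes measured on both on opposite sides of 0. These arrays hold the IP RNA in the same channel, so the count is the same as deposited and turned: 11 of 13 members had opposite signs, against 47.7% of all genes. Across the 13 members Pearson's r between these arrays was -0.49, against 0.12 over all genes. PRE7 and RPT1 lay above 0 on array 2 and below 0 on array 4, and RPN9 and RPN10 the other way round. Where a gene had 2 spots, they agreed in sign in 53.2% of genes on array 1 and 52.8% on array 2. Signs of single genes on those 2 arrays are therefore uncertain, in this pair and in those below.

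For pairs of arrays with the IP RNA in different channels, the count depends on the direction of the ratio. Opposite signs were found for arrays 1 and 2 in 16 of 22 members as deposited (all genes 49.8%) and in 6 of 22 turned (50.3%), with r of -0.62 and 0.62. For arrays 2 and 3 it was 8 of 10 as deposited (50.7%) and 2 of 10 turned (49.4%), with r of -0.43 and 0.43. Most of these members thus lay on opposite sides of 0 as deposited and on the same side when turned. For arrays 1 and 4 it was 7 of 18 as deposited (51.6%) and 11 of 18 turned (48.5%), and for arrays 3 and 4 it was 2 of 8 as deposited (48.2%) and 6 of 8 turned (51.8%). With array 5 it was 3 of 9 as deposited (47.1%) and 6 of 9 turned (52.9%) for array 1, and 3 of 6 in both cases for array 3 (42% and 58%).

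The remaining pairs share their channels. Arrays 1 and 3 had opposite signs in 7 of 15 members (all genes 51.2%), arrays 2 and 5 in 4 of 7 (49.7%) and arrays 4 and 5 in 1 of 4 (48.5%). Subtracting from each spot the median of the 81 spots around it in spot number gave 10 of 13 members for arrays 2 and 4 (48.2%). It gave 15 of 22 as deposited (50%) and 7 of 22 turned (52%) for arrays 1 and 2, and 6 of 10 as deposited (49.8%) and 4 of 10 turned (51.5%) for arrays 2 and 3. These counts were chosen after the values had been seen and were not tested, and values of 1 array share its labelling, slide and scan.

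**Figure D3:**
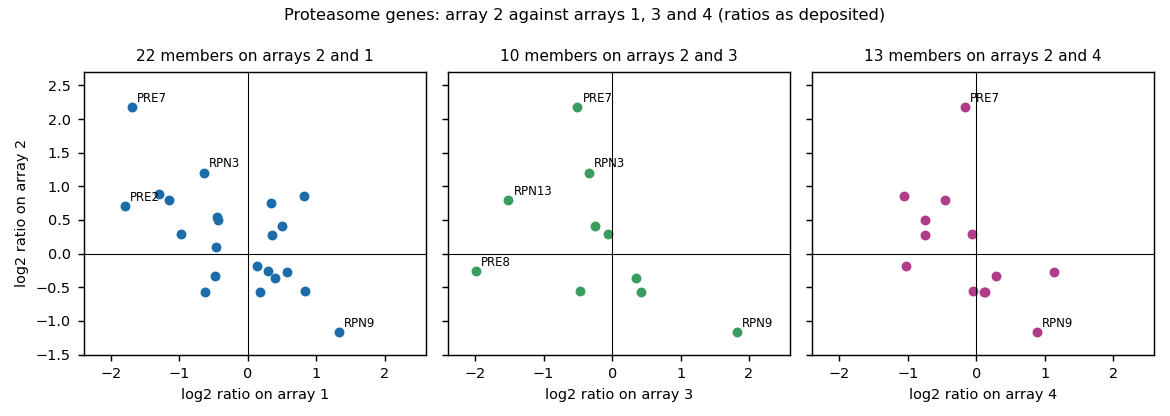
Log2 ratio of each proteasome gene on array 2 (y axis) against array 1, 3 or 4 (x axis), 1 point per gene measured on both, all as deposited. The upper left and lower right fields hold 16 of 22 points for array 1, 8 of 10 for array 3 and 11 of 13 for array 4, and with the arrays turned they would hold 6 of 22, 2 of 10 and 11 of 13.

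Genes with 2 spots on an array show how far the 2 spots of 1 gene agreed there. On the second platform nearly all such spots have adjacent numbers, and across genes r between them was 0.79, 0.86 and 0.92 on arrays 3, 4 and 5 (1542, 2365 and 1429 genes). The 15 members with both spots on array 4 differed by a median of 0.27 log2 units between spots, with the same sign in 13, against 79.2% of all genes. Of the 4 highest members there, RPT3 had 2.01 and 2.06, RPN1 2.09 and 2.34, RPT4 1.03 and 0.97, and RPN10 1.46 and 0.81. Both spots of each of the 4 thus lay above 0, with the widest difference in RPN10. On array 3 the 6 members differed by a median of 0.15, and RPT5, with -0.12 and 1.01, by the most. On array 5 the 7 members differed by a median of 0.57, all 7 with the same sign in both spots, against 90.8% of all genes, RPN5 having -1.24 and -2.87. On the first platform no such spots have adjacent numbers, and r was 0.12 on array 1 (1098 genes) and 0.31 on array 2 (430 genes). Because the spacing differs, r is not a like measure between the platforms. PRE8 had 2.33 and -1.74 on array 1, which average to the 0.30 given above, and RPT6 had 1.02 and -0.81 on array 2. The 8 members with 2 spots on array 1 agreed in sign in 4, and the 4 on array 2 in 2, against 53.2% and 52.8% of all genes. The median difference between the spots of 1 member was 0.76 on array 1 and 1.57 on array 2. Over all genes with 2 spots it was 0.71, 0.61, 0.44, 0.34 and 0.41 on arrays 1, 2, 3, 4 and 5. On arrays 1 and 2 most members had only 1 spot.

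**Figure D4:**
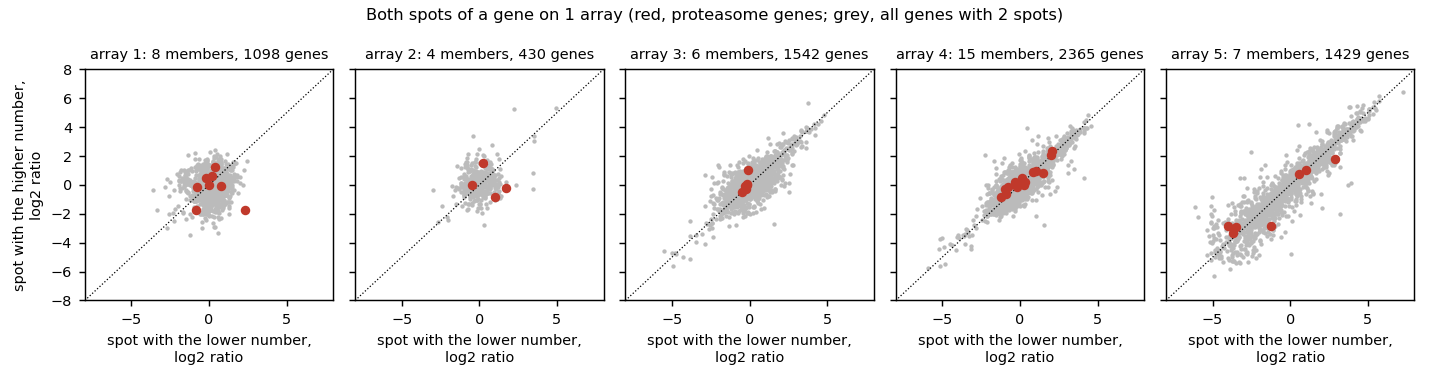
Log2 ratio of the spot with the higher number (y axis) against that with the lower number (x axis) for genes with 2 measured spots on an array, with proteasome genes in red and all such genes in grey. Points follow the diagonal on arrays 3, 4 and 5 and form a round cloud on arrays 1 and 2.

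The low values on array 5 went with very small numerators and with place on the array. The deposited log10 ratios could often be traced back to a fraction of whole numbers, in lowest terms: on array 5 this held for 87.5% of the values, against 8.22% of values jittered by up to 0.01. On that array 92.9% of the recovered denominators were multiples of 11, against 7.8% to 8.54% on arrays 1 to 4. With the common factor of 25 over 11 taken out, the 9 recovered spots of members below -1 had numerators from 1 to 7 and denominators from 23 to 101. RPT5 had 1 over 62, PRE3 had 2 over 101 and 3 over 67, PRE5 had 1 over 41 and 2 over 63, RPN5 had 1 over 23 and 7 over 52, and RPN4 had 1 over 36 and 4 over 97. The other 6 recovered member spots had numerators from 16 (RPN6) to 6551 (RPN13). Over all spots of array 5, 79.2% of those recovered below -1 had a numerator of at most 10, against 1.5% of those above 1. The numerator is part of the ratio, so lower ratios tend to have smaller numerators by construction. Recovery also differed, at 99.8% of spots below -1 and 65.0% of those above 1. At a numerator of 1, a step to 2 moves the log2 ratio by 1 unit. Since fractions are in lowest terms, the channel readings may be larger by a common factor.

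Ratios on array 5 also ran with spot number. The median over all spots was 1.09 for spots 1 to 3200, 0.47 for spots 3201 to 6400, -0.78 for spots 6401 to 9600 and -1.42 for spots 9601 to 12800. Of the 16 member spots measured there, 11 lay in the last of these ranges, against 1283 of all 3722 spots measured. With the running median over 81 spots subtracted, the member median on array 5 was -0.44, and members below -1 numbered 1 of 9 (RPT5, at -2.44), against 20.6% of all genes. PRE3 was then at -0.53, PRE5 at -0.72, RPN4 at -0.44 and RPN5 at 0.75. The part of small numerators and of place in the low member values was not tested.

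**Figure D5:**
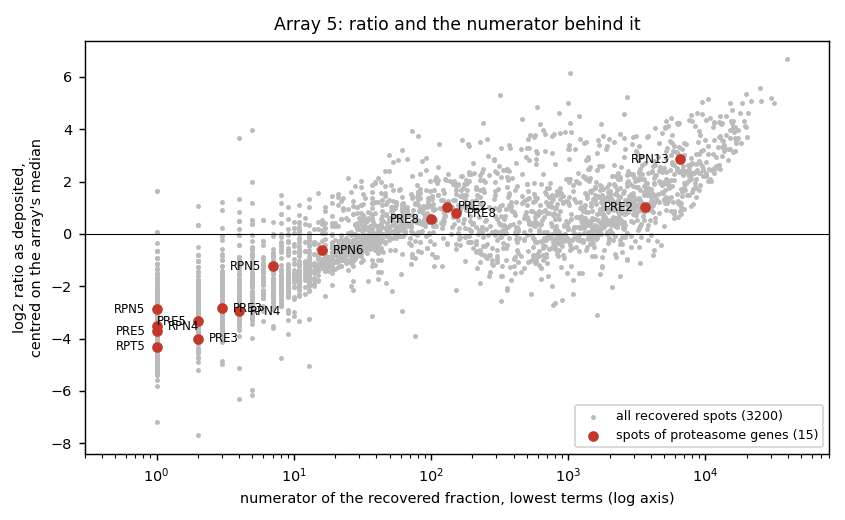
Log2 ratio of each recovered spot of array 5 (y axis) against the numerator of its fraction in lowest terms (x axis, log scale), proteasome spots in red. The 9 member spots below -1 have numerators from 1 to 7, and the other 6 lie at 16 or above. The numerator is part of the ratio, so the axes are not independent.

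Other genes of the pathway were described from 2 lists, assembly and associated factors (12 genes) and the ubiquitin system (27 genes). None of the tested genes of either list passed: 0 of 1 and 0 of 2 in the fit over 703 genes, and 0 of 3 and 0 of 7 among genes in at least 3 replicates, with limma. POC4, which helps to assemble the alpha ring, was the one assembly gene with a value in every replicate, and its mean was 1.45 (-0.70 with the arrays turned). Its values on arrays 1 to 5 were -1.79, 3.41, 2.39, -1.07 and 3.66, and it was the only gene of its list measured on array 5. Among genes in at least 3 replicates, IRC25, another chaperone of the alpha ring, was the lowest of the 3 of this list at -0.10 as deposited, whereas turned POC4 was the lowest.

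In the ubiquitin system, CDC34, a ubiquitin-conjugating enzyme, had the highest mean at 0.92 (-0.29 turned). It had 4.13 on array 4, the highest of the list there, and -1.24 on array 5. UBC6, a conjugating enzyme of the endoplasmic reticulum, had a mean of -0.09. DSK2, a shuttle receptor that brings ubiquitin chains to the proteasome, was tested only among genes in at least 3 replicates. It had the lowest mean there at -1.70 (1.84 turned) and was the lowest of the list on arrays 2 and 4, at -3.04 and -3.78. Means of genes from these lists are given without a spread, and the genes were named as the highest or lowest. The median of the 7 tested ubiquitin system genes was -0.07, against -0.05 over all genes in the same fit, and turned it was 0.16, against -0.02.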

How the data were processed

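Per spot, the authors deposited a log10 ratio between the channels. The unit was settled from the values: on array 5, 17.3% of the linear ratios, larger channel on top and times 100, were whole within 0.001 with base 10, against 0.134% with base 2 and 0.215% with base e. What the authors did before that step, and the direction, the sources used here do not give. Values were converted to log2, centred on each array's median and averaged per gene. Gene names came from the platform annotation of GEO, and symbols were updated by gene identifier through RefSeq assembly R64, which held 5577 of 5582 measured genes and changed no member's symbol. limma 3.58.1 in R 4.3.3 (lmFit, eBayes) tested the 703 genes with a value in each of the 4 replicates against 0, with Benjamini-Hochberg adjustment over all genes fitted and a threshold of 0.05. Other steps used Python 3.11.15 with pandas 2.3.3, numpy 2.4.6, matplotlib 3.10.9 and scipy 1.17.1. Both the fit and the recovery of fractions (terms up to 65535, product under 100000000) were tested on simulated data. For the fit the simulated shifts were 2 and 4 log2 units, larger than the mean ratio of any tested member. Named in full are members in 4 replicates and the highest and lowest member of each array. Members and lists were chosen with earlier results of these data known. The number of arrays limits the precision.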

Additional observations from a re-analysis of the deposited data

Results flagged for a closer look

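Of 12 sets of 4 or 5 member values examined with Dixon's test at 95%, 2 had 1 value standing apart. Chance gives about 1 in 20 for separate sets whose values have equal spread. Here the sets share values. The SD over all genes was 2.25 on array 5, against 0.81 to 1.11 on the other arrays, so that rate does not apply directly. PRE3 had replicate 4 (array 5) at -3.42, with a gap of 0.92 of the whole range to the nearest other replicate. The member median of array 5, at -2.06, stood apart from those of the other 4 arrays, with a gap of 0.81 of the range. Both values come from the array with small numerators and a trend along spot number, as described above.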

How the results depend on the processing

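No tested member passed the adjusted threshold under any alternative run. With arrays 2, 4 and 5 turned, the median of the tested members was 0.58, PRE3 0.70, RPN5 0.58 and RPN13 -1.09. RPN13 was also below 0 with arrays scaled to the same spread (-0.34), with the running median removed (-0.16) and without replicate 4 (-0.72). Leaving out 1 replicate in turn gave means from -1.28 to -0.16 for PRE3, -0.86 to -0.12 for RPN5 and -0.72 to 0.57 for RPN13, and a median of the 3 from -0.86 to -0.16. The values nearest 0 for PRE3, RPN5 and the median, and the lowest for RPN13, were those without replicate 4. Genes at an unadjusted p under 0.05 numbered 55 in the fit as reported and 17 turned, 32 with each array a replicate, 119 with genes in at least 3 replicates, 19 with eBayes trend and robust, and 26 to 65 leaving 1 replicate out. Removing the running median took PRE3 to -0.25, RPN5 to -0.06 and the median of the tested members to -0.16. It took the member median of array 5 to -0.44, its members below -1 to 1 (chosen after seeing the data), and the spot agreement to r of 0.73, 0.84 and 0.81 on arrays 3, 4 and 5. The member median of array 4 was 0.03, -0.04 centred on the mean and -0.05 with the running median removed. Opposite signs numbered 16 members as deposited and 6 turned for arrays 1 and 2, and 8 and 2 for arrays 2 and 3 (15 and 7, and 6 and 4, with the running median removed), also chosen after seeing the data. The causes were not tested. No paired analysis was possible because there is 1 group with no second one to block against. The pairing of IP and total RNA within an array is in every fit. Limits are the small numerators of low ratios on array 5 and the low agreement between spots of 1 gene on arrays 1 and 2. Their effect on the member values was not tested.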
